A study of Mus musculus with 12 samples.

Results

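The genes described here encode the proteins of the cytoplasmic ribosome, measured by RNA-seq in 12 mouse mammary tumors. They were found by symbol: every row whose name was Rpl, Rps or Rplp followed by a number, with at most a short suffix, together with Rpsa, and without the entries marked as pseudogenes. The rule gave 89 genes of 55401 rows, 53 of the large subunit and 36 of the small subunit, and used no measured value. Of the 89 members, 86 passed a filter of at least 1 TPM in at least 3 libraries. TPM here is the deposited FPKM value rescaled so that each library had the same total. Rpl3l, Rpl10l and Rps12l1 did not pass, and the last 2 of these were listed at 0 in every library.

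The tumors grew from 4T1 cells, a mouse mammary carcinoma line, injected orthotopically into Balb/c mice, and the groups differed in the protein the mice received. There were 4 groups of 3 tumors. Controls (replicates 4, 5 and 7) received an IgG1-Fc isotype control, and the IL-10-Fc group (replicates 2, 4 and 7) received the cytokine IL-10 joined to an Fc. The aCSF1R group (replicates 4, 6 and 8) received an antibody against the macrophage growth factor receptor CSF1R, and the BF10 group (replicates 3, 6 and 7) received an antibody against CSF1R, clone AFS98 on mouse IgG2a, with human IL-10 fused to its C-terminus. Treatment began at a tumor volume of 100 mm3 and was given 2 times per week. The number of doses differed between the descriptions, being 6 in the sample labels and 4 in the series text. The grafts were made from a single cell line, and nothing in the labels tied the RNA to a sorted cell type, so a level is the average over carcinoma cells and host cells. Fewer cells of a type and less RNA per cell cannot be told apart in such bulk samples.

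Each ribosome is built from a small subunit, which reads the mRNA, and a large subunit, which joins the amino acids and passes the new chain through its exit tunnel. The proteins are made in matched amounts, and many of their mRNAs start with a C followed by a run of pyrimidines, the terminal oligopyrimidine (TOP) tract through which growth signalling by mTOR and the RNA-binding protein Larp1 controls their translation. Cells that grow quickly, carcinoma cells among them, hold large amounts of these mRNAs. The comparisons asked whether the treatments changed the level of these mRNAs in whole tumors, and whether the members kept their proportions to each other.

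The members held between 13.0% and 25.3% of the FPKM sum of a tumor. In the controls the share was 23.4% in replicate 4, 15.6% in replicate 5 and 24.2% in replicate 7. In the IL-10-Fc tumors it was 14.3% in replicate 2, 15.3% in replicate 4 and 21.0% in replicate 7. In the aCSF1R tumors it was 14.9% in replicate 4, 14.3% in replicate 6 and 25.3% in replicate 8, and in the BF10 tumors 13.0% in replicate 3, 21.8% in replicate 6 and 14.9% in replicate 7. Every group held at least 1 tumor with a share under 16% and at least 1 tumor above 20%, so all 4 groups overlapped. The group means were 21.1% ± 4.75 for control, 16.9% ± 3.61 for IL-10-Fc, 18.2% ± 6.18 for aCSF1R and 16.6% ± 4.64 for BF10 (SD, n = 3 each). BF10 tumors lay 4.50 percentage points below control, with a p of 0.20 in a two-sided exact permutation test and 0.60 after Benjamini-Hochberg adjustment over 6 comparisons. IL-10-Fc lay 4.23 points below control (exact p = 0.20) and aCSF1R 2.93 points below it (exact p = 0.70). The other 3 comparisons gave exact permutation p-values from 0.60 to 0.90, and a comparison of 3 tumors against 3 cannot go below 0.10. Over the 4 groups together the exact permutation p was 0.651.

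**Figure D1:**
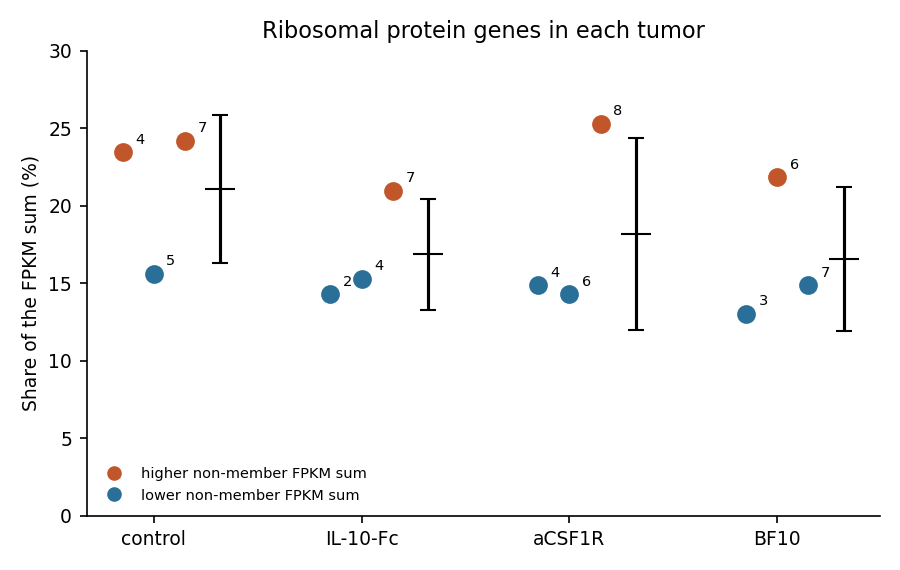
Share of the FPKM sum held by the 89 ribosomal protein genes (y axis, percent) in each of the 12 tumors by treatment group (x axis), with the replicate number beside each point and the group mean ± SD (n = 3) as a bar on the right. The 5 orange tumors had a higher FPKM sum over all other genes and lay between 21.0% and 25.3%, and the 7 blue tumors lay between 13.0% and 15.6%.

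The shares fell into 2 ranges that ran across the treatments. The libraries also separated by a quantity that leaves the members out, the FPKM sum of all other genes, which had its widest gap between 555966 and 618673. Above the gap were 5 libraries, control replicates 4 and 7, IL-10-Fc replicate 7, aCSF1R replicate 8 and BF10 replicate 6, and below it the other 7, with at least 1 library of each group on each side. These are called the higher-sum and lower-sum libraries below, and because they were defined from the data, differences between them are described without a test. The member share was 23.1% ± 1.75 (SD, n = 5) in the higher-sum libraries and 14.6% ± 0.846 (SD, n = 7) in the lower-sum libraries. Both subunits moved together: the small subunit held 9.91% ± 0.742 against 6.15% ± 0.352, and the large subunit 13.2% ± 1.01 against 8.47% ± 0.501 (SD, n = 5 and n = 7). The share of the remaining FPKM sum that came from mitochondrially encoded mRNAs moved alongside, at 6.82% to 11.1% in the higher-sum and 3.48% to 4.36% in the lower-sum libraries. Entries marked as ribosomal protein pseudogenes did so too, at 1.69% to 2.17% against 0.917% to 1.16%. Both kinds of entry count in the sum that set the division, so their shares are not independent of it. FPKM divides by transcript length, so an FPKM sum rises as reads move to shorter transcripts. The coding members at 10 TPM or more have coding sequences of 75 to 1257 bases. The member share may therefore not be independent of the division either, although the members are left out of that sum. Relative sequencing depth, estimated from 36 to 46 low-abundance genes per library, was 0.916 to 1.04 of the median library. Only genes whose values above 0 lay close together across libraries were used, so a large difference in depth could not show. Whether depth followed the division cannot be told from this estimate. Epithelial and fibroblast markers were mostly lower in the higher-sum libraries, as were most genes. Of the 15504 genes tested, 12425 lay below 0 in this difference, and 48.8% were lower without overlap. The summed level of the 5 epithelial markers Epcam, Krt8, Krt18, Krt19 and Cdh1 was 668 to 1441 TPM in the higher-sum and 1610 to 2316 TPM in the lower-sum libraries, without overlap, and all 5 were lower on average, with a median log2 difference of -1.29. The 5 fibroblast markers (Col1a1, Col1a2, Col3a1, Dcn and Pdgfra) summed to 836 to 3840 TPM against 1919 to 9056 TPM, with 4 of 5 lower and a median of -1.69. The other lists overlapped, at 130 to 721 against 132 to 953 TPM for 4 leukocyte markers (median log2 difference 0.02), 33.3 to 981 against 94.8 to 905 TPM for 5 macrophage markers (-0.22) and 302 to 990 against 246 to 1237 TPM for 5 red blood cell markers (0.29). The median over all genes tested was -0.70, and no marker of these 5 lists was at 0 in any library. The part of cell composition, RNA quality or library preparation in this division was not tested.

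Most members were among the abundant mRNAs of the tumors. Of the 89, 71 had a mean of at least 1000 TPM. The most abundant was Rplp1, an acidic protein of the stalk that recruits elongation factors, at 4608 TPM in the lowest and 8809 TPM in the highest library. Rpl41, the shortest of the ribosomal proteins, ranged from 3646 to 8142 TPM, and Rpl7 of the large subunit from 2873 to 7489 TPM. These 3 genes made up 8.95% of the member total on average, so no single gene dominated the sum. Among the members that passed the filter, the lowest means were those of Rpl32l (1.11 TPM), Rpl39l (2.25 TPM) and Rps3a3 (4.32 TPM), all related in sequence to an abundant member.

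The TOP tract could be looked for in 64 of the 89 members, those with an entry in the RefSeq promoter table for GRCm38.p6. A run of at least 7 pyrimidines starting with C, on the sense strand and within 25 bases of an annotated start, was present in 37 of them (57.8%). Of all 27025 genes looked at in this way, 25.6% held such a run. An annotated start need not be the first base of the mRNA, so a missing run does not show that a member lacks the TOP tract. The letters CCGGAAG, a core that ETS-family factors such as GABP bind, stood on either strand of the 300-base window in 26 members (40.6%), against 9.93% of all genes. The sequences here run from 40 bases before to 20 bases after the annotated start, with the tract in capitals, and were chosen to show members that carry it beside Rps2 and Rplp0, whose levels behaved differently from most members and which hold no such run at this start.
Rps6 (chr4:86857348-86857407, minus strand): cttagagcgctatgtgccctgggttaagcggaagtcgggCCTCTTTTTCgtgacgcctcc
Rpl28 (chr7:4792925-4792984, plus strand): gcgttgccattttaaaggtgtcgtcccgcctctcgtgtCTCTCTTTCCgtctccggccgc
Rplp2 (chr7:141447611-141447670, plus strand): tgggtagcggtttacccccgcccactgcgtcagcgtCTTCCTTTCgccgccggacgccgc
Rpl27a (chr7:109519155-109519214, plus strand): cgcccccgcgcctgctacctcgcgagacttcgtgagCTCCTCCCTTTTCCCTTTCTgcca
Rpl38 (chr11:114668540-114668599, plus strand): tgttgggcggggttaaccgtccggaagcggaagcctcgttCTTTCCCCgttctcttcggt
Rps2 (chr17:24720023-24720082, plus strand): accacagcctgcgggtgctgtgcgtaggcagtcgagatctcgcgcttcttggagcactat
Rplp0 (chr5:115559427-115559486, plus strand): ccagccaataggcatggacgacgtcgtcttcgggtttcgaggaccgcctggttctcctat
Such a run near the annotated start did not mark out the members that moved differently. Rpl28 and Rplp2 carry it and were lower in the higher-sum libraries, whereas Rps6, Rpl27a and Rpl38 carry it and were higher there. The median log2 difference between higher-sum and lower-sum libraries was 0.74 for members with such a run and 0.79 for members without one. For the ETS core it was 0.86 in 25 members with it and 0.63 in 35 without, and this difference was not tested.

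Between treatments, no ribosomal protein gene passed the threshold of an adjusted p under 0.05 and a 1.5-fold change in any of the 6 comparisons (limma with Benjamini-Hochberg adjustment over 15504 genes). In BF10 against control the count was 0 of 86 members, with 0 members at an unadjusted p under 0.05, and of all genes tested 0% were called higher and 0% lower. In IL-10-Fc against control it was again 0 of 86, with 0 at the unadjusted level, where 0.00645% of all genes were called lower and 0% higher. In aCSF1R against control it was 0 of 86, with 1 at the unadjusted level, and 0.568% of all genes were called lower and 0% higher. Among the treated groups 0 of 86 members were called and 0 reached the unadjusted level. There the background was 0% in either direction for BF10 against IL-10-Fc, 0.735% higher for BF10 against aCSF1R and 0.542% higher for IL-10-Fc against aCSF1R.

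The members' medians lay below those of all genes in the comparisons with control. The median log2 change was -0.36 in BF10 against control, where 69 of 86 members were below 0 and the median over all genes tested was 0.32. In IL-10-Fc against control the median was -0.33 against 0.35 for all genes, and in aCSF1R against control -0.25 against 0.24. These comparisons share the control tumors, of which 2 of 3 were higher-sum libraries, while each treated group had 1 of 3. With the library set as a term in the fit the members' medians were -0.13, -0.10 and -0.04, and those of all genes 0.07, 0.10 and 0.0068. Among the 7 lower-sum libraries alone, control replicate 5 was the only control, so the comparisons with control rest on 1 control tumor. There the members' medians were -0.17, -0.08 and -0.09, and those of all genes -0.05, -0.07 and 0.02. Against that tumor, the members and all genes lay close together in IL-10-Fc. Between treated groups, which were balanced for the division, the members' medians were -0.05 for BF10 against IL-10-Fc, -0.12 for BF10 against aCSF1R and -0.04 for IL-10-Fc against aCSF1R, beside -0.05, 0.06 and 0.11 for all genes.

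**Figure D2:**
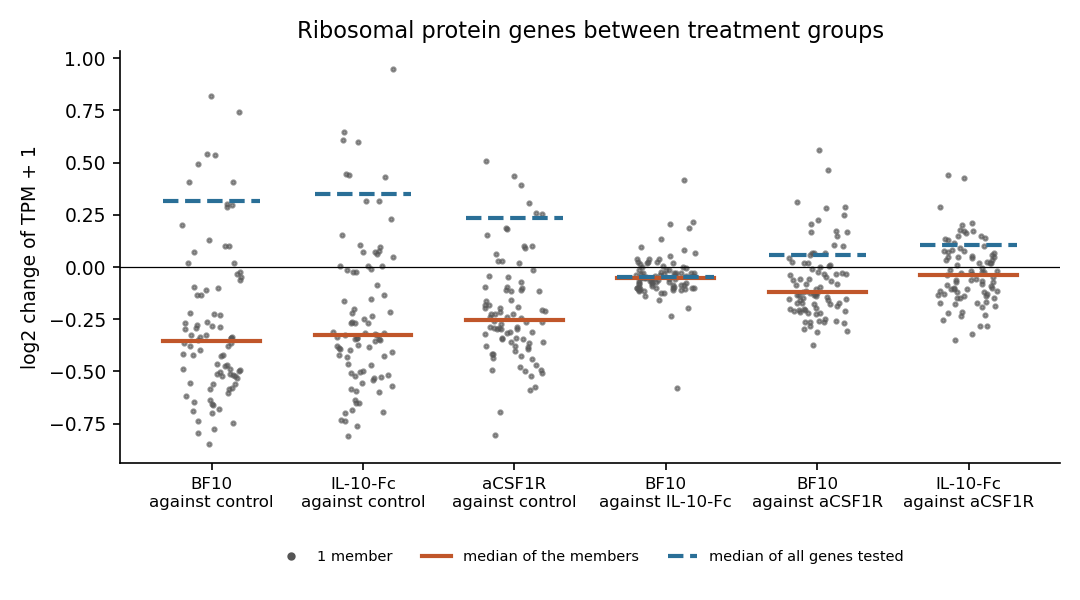
log2 change of TPM + 1 (y axis) of the 86 ribosomal protein genes tested, 1 point each, in the 6 comparisons (x axis), with the median of the members as a solid line and the median of all genes tested as a dashed line. In the 3 comparisons with control the members' median lay between -0.36 and -0.25 and that of all genes between 0.24 and 0.35, and no point passed the threshold.

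The spread between tumors set how small a change could be seen. The median standard error of a member's log2 change was 0.36 in each comparison with 8 residual degrees of freedom, and 0.11 to 0.12 with the library set as a term. With that term 12 members reached an unadjusted p under 0.05 when BF10 was set against control, 8 when IL-10-Fc was and 2 when aCSF1R was. These were 14%, 9.3% and 2.33% of the members, beside 3.75%, 3.7% and 7.53% of all genes tested at the same unadjusted level, and 0 of 86 members were called in any comparison. The library set was defined from these same data and separates the member shares without overlap. The smaller standard error and the unadjusted counts of this fit are therefore a description and not a valid test. The same fit called 0% of all genes higher and 0.00645% lower in BF10 against control, 0.0193% and 0.00645% for IL-10-Fc, and 0.0774% and 1.93% for aCSF1R, each against control. Against aCSF1R it called 2.77% of all genes higher and 0.0516% lower in BF10 and 2.12% and 0.0129% in IL-10-Fc tumors. One alternative gave calls: with sample weights estimated by limma, 50 members were called lower and 7 higher in BF10 against control, where 5.74% of all genes were called lower and 52.1% higher. In IL-10-Fc against control 47 members were lower and 7 higher, beside 5.24% and 54.6% of all genes, and in aCSF1R against control 51 were lower and 7 higher, beside 7.49% and 56.4%. Between treated groups 1 member was called, higher in IL-10-Fc against aCSF1R, where 6.2% of all genes were called higher and 6.51% lower. The background there was 0.116% higher and 0.123% lower for BF10 against IL-10-Fc, and 2.48% and 0.516% for BF10 against aCSF1R. In that fit the weight estimation stopped before it converged, IL-10-Fc replicate 4 had a weight of 61.7 and control replicate 5, the only lower-sum control, a weight of 0.11.

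In BF10 against control the member with the smallest unadjusted p among those below 0 was Rpl39, a small protein that lines the exit tunnel. Its level was 3893, 1807 and 4213 TPM in the controls and 1324, 2864 and 1562 TPM in the BF10 tumors, so the groups overlapped. The log2 change was -0.77 ± 0.47 (SE; limma adjusted p = 0.79). Among those above 0 it was Rpl14 of the large subunit, at 829, 1600 and 968 TPM in the controls and 1711, 1230 and 1862 TPM in the BF10 tumors. Its log2 change was 0.54 ± 0.33 (SE; limma adjusted p = 0.79), and control replicate 5 again lay with the treated tumors.

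In IL-10-Fc against control and in aCSF1R against control the corresponding members were Rpl4, whose protein reaches into the exit tunnel, and Rpl32l, a low-abundance entry related to Rpl32. Rpl4 stood at 1301, 2038 and 1300 TPM in the controls, 1886, 1920 and 1837 TPM in the IL-10-Fc tumors and 1925, 1890 and 1615 TPM in the aCSF1R tumors. The log2 change was 0.32 ± 0.21 for IL-10-Fc and 0.26 ± 0.21 for aCSF1R (SE, limma adjusted p = 0.74 and 0.89). Its sign turned, to -0.10 in both, among the lower-sum libraries alone, where control replicate 5 was the only control. Rpl32l stood at 3.20, 1.29 and 1.39 TPM in the controls, 0.96, 0.40 and 0.82 TPM in the IL-10-Fc tumors and 0, 0.69 and 1.55 TPM in the aCSF1R tumors. It was the 1 member at an unadjusted p under 0.05 in aCSF1R against control (log2 change -0.80 ± 0.35, SE; limma adjusted p = 0.89).

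Among the treated groups, the members of smallest unadjusted p above and below 0 were Rpl39l (log2 change 0.42 ± 0.57, SE) and Rpl6l (-0.58 ± 0.52) in BF10 against IL-10-Fc, both under 20 TPM in every library. In BF10 against aCSF1R they were Rps4l (0.56 ± 0.55) and Rpl23 (-0.26 ± 0.29). Rps4l was also under 20 TPM in every library, and its change ranged from 0.0099 to 0.99 with 1 library left out. In IL-10-Fc against aCSF1R the members were Rpl29 (0.17 ± 0.18) and Rpl36a (-0.35 ± 0.44). All 6 had a limma adjusted p of 1.0. The aCSF1R tumors held far less of the macrophage markers than the others, with a summed level of 33.3 to 142 TPM over Adgre1, Csf1r, Cd68, Mrc1 and C1qa, against 750 to 981 TPM in control, 626 to 811 TPM in IL-10-Fc and 730 to 905 TPM in BF10 tumors. Of these 5 genes, 3 were called lower in aCSF1R against control (Mrc1, Adgre1 and C1qa), in the comparison in which 0 of 86 ribosomal protein genes were called. The carcinoma and epithelial markers Epcam, Krt8, Krt18, Krt19 and Cdh1 had 0 of 5 called in that comparison, and their summed level was 668 to 2316 TPM in aCSF1R and 923 to 2174 TPM in control tumors. Fibroblast and red blood cell markers also had 0 of 5 called each, and of 4 leukocyte markers 2 were called lower (Cd52 and Coro1a). Over all genes tested in that comparison, 0.568% were called lower and 0% higher.

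The larger differences lay between the higher-sum and lower-sum libraries, and they did not run the same way for all members. Of the 86 members tested, 63 were higher without overlap in the higher-sum libraries and 9 were lower without overlap, where 6.23% of all genes tested were higher and 48.8% lower in this way. The median log2 difference was 0.75 for the members and -0.70 for all genes tested. The 80 protein-coding members with a mean of at least 10 TPM ranged from 0.385-fold to 2.60-fold, with 69 higher and 11 lower. Neither subunit stood out, with a median log2 difference of 0.76 for 32 small-subunit and 0.71 for 48 large-subunit genes.

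Rps2, a small-subunit protein near the mRNA entry channel, moved most against the majority. It was at 196, 281, 462, 170 and 371 TPM in the higher-sum libraries (control 4 and 7, IL-10-Fc 7, aCSF1R 8 and BF10 6) and at 698 to 862 TPM in the other 7. The means were 296 and 768 TPM, a ratio of 0.385. Rplp0, the protein that anchors the stalk and is often used as a reference gene for quantitative PCR, was at 782, 902, 1371, 847 and 1188 TPM in the same 5 libraries and at 1803 to 2204 TPM in the others, a ratio of 0.491. Its stalk partner Rplp2 had a ratio of 0.651 and no overlap, while Rplp1, of the same stalk, had 1.55 and no overlap. Rpl7l1 (0.561), Rpl14 (0.604), Rpl8 (0.667), Rpl28 (0.681), Rps9 (0.702) and Rps13 (0.709) were the other members that were lower without overlap.

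At the other end stood Rpl22l1, the paralog of Rpl22, and Rps27a, which is made as a fusion with ubiquitin. Rpl22l1 was at 1118, 1141, 737, 1038 and 738 TPM in the higher-sum libraries, in the order given above, and at 305 to 452 TPM in the others, a ratio of 2.60. Rps27a was at 4836, 4778, 3188, 4787 and 3508 TPM against 1535 to 2047 TPM, a ratio of 2.42. Within the higher-sum libraries, IL-10-Fc replicate 7 and BF10 replicate 6 lay nearer to the lower-sum libraries for Rps2, Rplp0, Rpl22l1 and Rps27a alike. Among all 80 members, 17 were at least 2-fold higher. Other members hardly moved: Rps10 had a ratio of 0.996, Rps19 1.06, Rpl7a 1.07, and Rpsa, the laminin-receptor protein of the small subunit, 1.09, all with overlap.

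**Figure D3:**
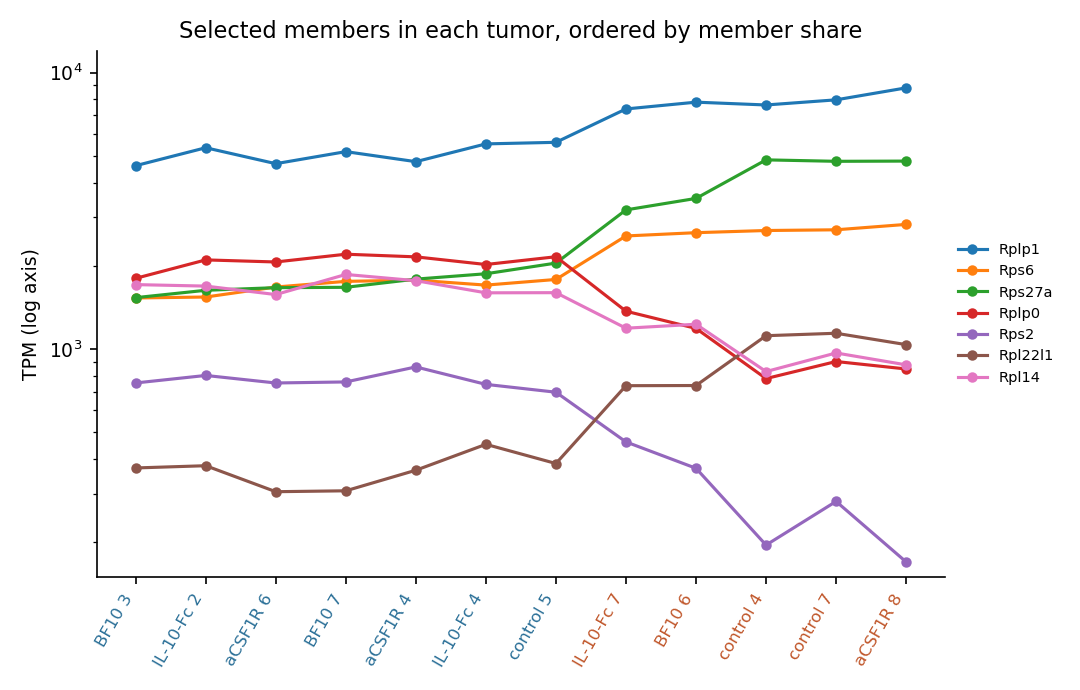
TPM (y axis, log scale) of 7 ribosomal protein genes in each of the 12 tumors (x axis, ordered by the member share from low to high, lower-sum libraries in blue and higher-sum libraries in orange). The lines of Rps27a and Rpl22l1 rise and those of Rplp0, Rpl14 and Rps2 fall at the step from control 5 to IL-10-Fc 7, while Rplp1 and Rps6 rise by about the ratio of the whole group.

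The difference was related to base composition and length across these 80 members, given as a description since they share the same 12 libraries. The FPKM sums that set the division depend on transcript length too, so the relation to length is not independent of the division. Spearman's rho of the log2 difference was -0.48 with the share of G and C in the coding sequence, -0.46 with coding length and -0.06 with the mean level in the lower-sum libraries. Pearson's r was -0.44, -0.46 and 0.04. With the share of G and C at the third codon position alone, rho was -0.215 and r -0.144. No such values are given for other genes. Coding length and G and C share were themselves almost unrelated (rho 0.07). Rps2 has 58.4% G and C over 879 coding bases and Rplp0 56.1% over 951, whereas Rpl22l1 has 39.9% over 366 and Rps27a 45.9% over 468. Exceptions were plain: Rps14, with 56.5% G and C, was 2.35-fold higher, and Rpl36, with 61.6%, the largest share, was 1.43-fold higher. The stretches here are 60 bases of each coding sequence, in frame, whose composition is nearest to that of the whole, with G and C in capitals. The first 3 genes were lower and the last 3 higher in the higher-sum libraries.
Rps2: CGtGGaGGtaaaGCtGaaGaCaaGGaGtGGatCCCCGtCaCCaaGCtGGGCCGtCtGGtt
Rplp0: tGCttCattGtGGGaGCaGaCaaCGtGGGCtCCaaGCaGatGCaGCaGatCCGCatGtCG
Rpl8: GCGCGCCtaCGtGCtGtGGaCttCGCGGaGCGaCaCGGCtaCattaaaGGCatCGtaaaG
Rpl22l1: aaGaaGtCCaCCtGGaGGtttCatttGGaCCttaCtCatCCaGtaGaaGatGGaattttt
Rps27a: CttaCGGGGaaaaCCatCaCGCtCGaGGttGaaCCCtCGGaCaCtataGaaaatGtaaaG
Rpl39: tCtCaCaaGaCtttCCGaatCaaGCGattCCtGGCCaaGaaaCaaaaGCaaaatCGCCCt
These stretches hold 58.3%, 56.7%, 58.3%, 40%, 46.7% and 45% G and C. Each was read from the GENCODE vM21 transcripts of GRCm38, and the genes lie on chromosomes 17, 5, 15, 3, 11 and X.

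**Figure D4:**
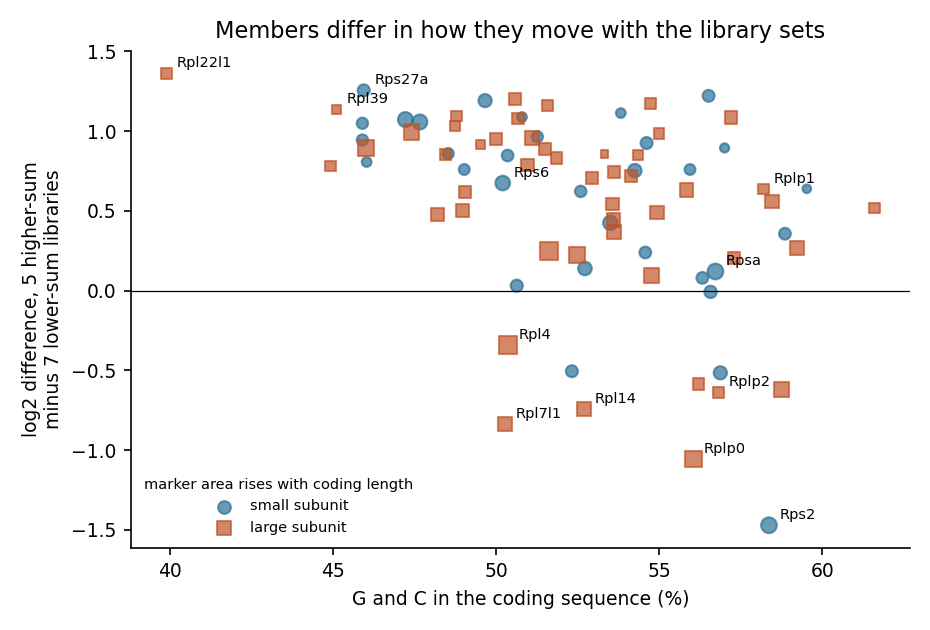
log2 difference between the 5 higher-sum and 7 lower-sum libraries (y axis, means of log2 TPM + 1) against the share of G and C in the coding sequence (x axis, percent) for 80 ribosomal protein genes, circles for the small and squares for the large subunit, with marker area rising with coding length. Genes under 0 have at least 50% G and C, and the highest points, Rpl22l1 and Rps27a, have 39.9% and 45.9%.

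Within the lower-sum libraries the members kept their proportions closely. The coefficient of variation of a member's share of the member total had a median of 4.16% over these 7 tumors, which hold all 4 treatments, and 77 of the 80 coding members stayed under 10%. Over the 5 higher-sum libraries alone the median was 9.15%. Over the 12 tumors the median was 12.9% and 29 stayed under 10%. No such values are given for other genes, so a steadiness particular to the members cannot be read from them. Rpl12 (3.47%) and Rps6, the substrate of the S6 kinases (3.76%), were among the members that varied least over the 12 tumors. Rps2 (58.2%), Rplp0 (50.2%) and Rpl7l1 (46.6%) varied most, but over the lower-sum libraries alone they varied by 9.42%, 4.10% and 9.13%. Rps6 was at 2685, 1786 and 2701 TPM in control, 1543, 1704 and 2566 TPM in IL-10-Fc, 1776, 1677 and 2825 TPM in aCSF1R and 1531, 2637 and 1758 TPM in BF10 tumors, following the member total in each. Between pairs of libraries the correlation of log2 TPM across the 80 members, which are not independent replicates, was 0.989 to 0.998 for the 21 pairs of lower-sum libraries, 0.959 to 0.996 for the 10 pairs of higher-sum libraries and 0.795 to 0.954 for the 35 pairs across.

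Several members have a paralog or a near-identical copy, and the ratio of the pair does not depend on the total of the group. In 8 pairs both genes passed the filter. Over the 4 treatment groups the log2 ratio gave exact permutation p-values from 0.117 to 0.762 (adjusted over the 8 pairs, 0.489 to 0.762), and the 48 comparisons between 2 groups had a smallest adjusted p of 0.686. No pair passed the threshold, and 0.10 is the smallest p that 3 tumors against 3 can give before adjustment.

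Rpl22l1, which can replace Rpl22 in the ribosome, stood at 43.8%, 29.2% and 51.6% of the TPM of Rpl22 in control, 32.8%, 36.0% and 37.7% in IL-10-Fc, 27.5%, 25.4% and 43.0% in aCSF1R and 34.7%, 37.2% and 24.5% in BF10 tumors. The higher-sum libraries lay at 37.2% to 51.6% and the others at 24.5% to 36.0%. Rps27l, the paralog of Rps27 and a target of p53, stood between 8.02% and 13.6% of Rps27. Rpl7l1, whose protein acts in the assembly of the large subunit, was at 0.389% to 0.779% of Rpl7 in the higher-sum and 1.61% to 2.29% in the lower-sum libraries. Rpl36al, which the naming rule left out, was at 20.3% to 41.1% of Rpl36a. The germ-cell paralog Rpl39l stayed under 0.4% of Rpl39 in every tumor. The muscle paralog Rpl3l did not exceed 0.66 TPM in any library, beside a summed level of 6.59 to 61.6 TPM for the skeletal muscle markers Acta1, Ckm, Myh4, Tnnt3 and Mylpf, of which 2 of 5 passed the filter.

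**Figure D5:**
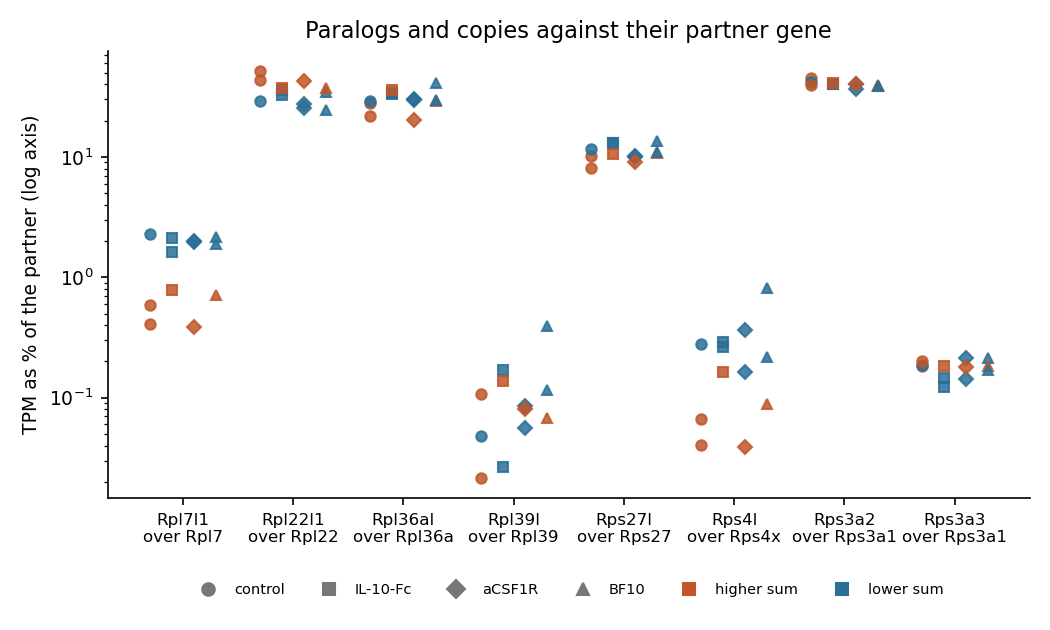
TPM of a paralog or copy as a percentage of its partner gene (y axis, log scale) for 8 pairs (x axis), 1 point per tumor, with the marker shape giving the treatment group and the color the library set. Rpl7l1 over Rpl7 separates the higher-sum (0.389% to 0.779%) from the lower-sum libraries (1.61% to 2.29%) and Rps3a2 over Rps3a1 stays between 36.4% and 45.5% in all 12 tumors.

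Entries without a coding annotation make up 6 of the 89 members, and their values are uncertain. Rps3a2 on chromosome 14 (88123017 to 88123808, minus strand, a single exon) matches 788 of the 792 coding bases of Rps3a1 on chromosome 3 and shares 78.3% of its 75-base windows, the read length used, with other members. It was given 36.4% to 45.5% of the TPM of Rps3a1. The 60 coding bases from position 186 of Rps3a1 are shown beside their match in Rps3a2, with the first base that differs in capitals.
Rps3a1: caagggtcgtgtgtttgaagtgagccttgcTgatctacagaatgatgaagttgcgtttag
Rps3a2: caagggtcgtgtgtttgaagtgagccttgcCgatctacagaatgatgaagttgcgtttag
The ratio differed little between tumors, with a standard deviation of the log2 ratio of 0.01 to 0.10 within groups. Over the 4 groups the exact permutation p was 0.117, and it was 0.00909, before adjustment over the pairs, without control replicate 7. Rps3a3, with 783 of 792 bases identical, was given under 0.22% of the TPM of Rps3a1. Rpl6l shared 53.7% of its 75-base windows with Rpl6, and Rps12l1 shared 100% with Rps12 and was listed at 0. Rpl32l shared 6.15% with Rpl32. For the other 80 members no window was shared with another member, but copies outside the rule, such as the processed pseudogenes, were not searched.

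Genes of the same ribosome that the symbol rule does not reach were looked at as well. Rack1, a scaffold on the small subunit, was 1.27-fold higher in the higher-sum libraries and Fau, a fusion with a small-subunit protein, 1.20-fold, each without overlap. Genes of neighbouring functions were counted beside the members. Of all genes tested against control, 0% were called higher, and 0% (BF10), 0.00645% (IL-10-Fc) and 0.568% (aCSF1R) were called lower. In the comparisons with control, 0 of 78 mitochondrial ribosomal proteins, 0 of 30 ribosome biogenesis factors, 0 of 19 translation factors and other TOP mRNAs, 0 of 8 regulators (Myc, Mtor, Rptor, Larp1, Eif4ebp1, Rps6kb1, Rps6kb2 and Mdm2), 0 of 77 oxidative phosphorylation subunits and 0 of 13 mitochondrially encoded mRNAs were called. In BF10 against control their median log2 changes were 0.21, 0.50, 0.33, 0.67, -0.13 and -0.50 in that order, beside -0.36 for the ribosomal proteins and 0.32 for all genes tested. Between the higher-sum and lower-sum libraries the medians were -0.21, -1.14, -0.42, -1.30, 0.42 and 0.91. The translation factors and other TOP mRNAs had 6 of 19 above 0 and 13 below: Eef2, the translocation factor, had a ratio of 0.335 and Eif4b 0.406, while Eef1a1 had 1.14 and Eif3e 2.25.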

How the data were processed

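RNA from 12 tumors was extracted with TRIzol and sequenced from stranded poly(A) libraries in 75-base reads. The authors deposited gene-level FPKM values for all samples in one table, on mm10. The submitters' processing notes name STAR 2.7.5a, RSEM 1.3.3 and DESeq2 1.28.0. The authors' 4 tables of fold changes and p-values between groups were not used. Each of the 12 FPKM columns matched 1 sample title, leaving 0 unmatched, and groups came from the titles. Nothing stated that the libraries of a group were processed independently beyond being separate samples, so p-values measure the spread between these samples.

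FPKM values were rescaled to TPM, and genes with at least 1 TPM in at least 3 libraries were kept (15504). The depth in reads is not given by the table. Only a relative depth was estimated, from the smallest steps of low values, so no counting interval is given. log2(TPM + 1) was fitted over all 12 libraries with limma 3.58.1 (trend) in R 4.3.3. A log2 change on this scale understates the change of genes near 1 TPM. The share of the FPKM sum and the log2 paralog ratios (TPM + 0.1) were compared by two-sided exact permutation in Python 3.11.15. The code was tested on simulated data. Transcripts and coordinates came from GENCODE vM21 (GRCm38), which holds all 89 members.

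Genes were named by rule: paralog pairs, Rplp0, Rplp1, Rplp2, Rpsa, Rps6 and Rps27a, the 3 highest and 3 lowest means, the smallest p in each direction of a comparison, and the 3 largest and 3 smallest variations of the share of the member total at 10 TPM or more. Rps9, Rps13, Rpl8, Rpl28, Rps10, Rps19, Rpl7a, Rps14, Rpl36, Rpl27a, Rpl38, Eef2, Eif4b, Eef1a1 and Eif3e were named after their values were seen. Some genes that the rule names are not reported here. Members and gene lists were chosen with earlier results of these data known. Alternatives covered pseudocount, scaling, filter, library set, replicate block, sample weights and each library left out.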

Additional observations from a re-analysis of the deposited data

How the results depend on the processing

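The count of members past the threshold was 0 in all 6 comparisons under every alternative scaling, pseudocount, filter and library left out. The exception was sample weights, with 57 in BF10 against control (50 lower, where 5.74% of all genes were called lower and 52.1% higher), 54 in IL-10-Fc against control (47 lower, beside 5.24% and 54.6%), 58 in aCSF1R against control (51 lower, beside 7.49% and 56.4%) and 1, higher, in IL-10-Fc against aCSF1R (beside 6.51% and 6.2%). The members' median log2 change was -0.36 in BF10 against control, and -0.73 with median of ratios, -0.72 with sample weights, -0.00051 scaled to the ribosomal protein sum and 0.016 with that scaling and the library set as a term, the last chosen after seeing the data. With median of ratios it was -0.77 in IL-10-Fc against control, and with sample weights -0.72 in aCSF1R against control. With 1 library left out it ranged from -0.60 to -0.21 in BF10 against control, -0.55 to -0.20 in IL-10-Fc against control, -0.55 to -0.10 in aCSF1R against control, -0.28 to 0.13 in BF10 against IL-10-Fc, -0.35 to 0.16 in BF10 against aCSF1R and -0.24 to 0.21 in IL-10-Fc against aCSF1R. The cause of these shifts was not tested.

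The share of the FPKM sum kept its direction against control in every alternative, with differences of -7.23 to -2.73 points for BF10, -6.96 to -2.67 for IL-10-Fc and -6.49 to -1.0 for aCSF1R when 1 library was left out. Between treated groups the sign was not stable. BF10 minus IL-10-Fc was 0.0658 points as a share of estimated reads and ranged from -2.90 to 1.79 with 1 library left out, turning above 0 without IL-10-Fc replicate 7, BF10 replicate 3 or BF10 replicate 7. BF10 minus aCSF1R ranged from -4.20 to 1.99 and turned without aCSF1R replicate 8 or BF10 replicate 3. IL-10-Fc minus aCSF1R was 0.202 within the larger library set and ranged from -3.36 to 2.26, turning without aCSF1R replicate 8. The exact p over the 4 groups ranged from 0.324 to 0.874 with 1 library left out. For Rps3a2 over Rps3a1 it ranged from 0.00909, without control replicate 7, to 0.270.

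Single members turned sign in a few settings, none of them called. Rpl4 in IL-10-Fc against control was -0.13 with median of ratios and -0.10 within the larger library set, where it was also -0.10 in aCSF1R against control. The only control in that set was control replicate 5. Rpl39l in BF10 against IL-10-Fc was -0.12 with sample weights and from -0.086, without IL-10-Fc replicate 2, to 0.72 with 1 library left out, Rpl29 in IL-10-Fc against aCSF1R was -0.032 with median of ratios, and Rpl36a there ranged from -0.58 to 0.11, the last without aCSF1R replicate 8. Same-numbered tumors did not deviate together, with correlations of their deviations from -0.66 to 0.42, so the numbers were not used to pair samples. A replicate block (limma, correlation -0.37) left 0 members called in all 6 comparisons, with a median of -0.26 in BF10 against control. With 3 tumors per group, the median standard error of 0.36 on the log2 scale limited which changes of single members could be seen.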
